A study of Saccharomyces cerevisiae with 15 samples.

Results

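The comparison described here set budding yeast deleted for BNA4 against yeast with BNA4 intact, both making the aggregating huntingtin fragment Htt103Q. Its members are the 3 arrays titled bna4 and the 3 titled Htt103Q, 6 of the 15 arrays of the series, read over 9275 yeast probe sets after 60 control probe sets were left out. The bna4 strain carried bna4Δ and the galactose-inducible Htt103Q fragment, with a tract of 103 glutamines. A further 3 arrays of an mbf1Δ strain with the same fragment served as a second comparison group, and the Htt103Q control carried the fragment without either deletion. All of these strains were MATa of the laboratory background BY4741. The remaining arrays of the series were 3 titled Htt25Q, for a fragment with 25 glutamines, and 3 of a ume1Δ strain. They were normalized and fitted together with the others, as groups of their own, so they also entered the estimate of variance. Cultures of 12 ml in uracil-free synthetic medium with 2% galactose were shaken at 30 °C and grew to an OD600 near 1.0 after a start at 0.2. The labels do not say how many clones of each deletion were used, and no measure of the fragment itself is used here.

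BNA4 encodes kynurenine 3-monooxygenase, a mitochondrial outer membrane enzyme that hydroxylates kynurenine on the route by which yeast makes NAD from tryptophan. The product, 3-hydroxykynurenine, is processed further to quinolinic acid and then to nicotinic acid mononucleotide, where the de novo route joins the salvage routes from nicotinic acid and nicotinamide riboside. Loss of BNA4 is known as a suppressor of the toxicity of mutant huntingtin fragments in yeast, which is the setting of this series.

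The deposited values fell into separate sets, recognised by the lowest value that the arrays of a set share. Values are log2 signals throughout. The lowest deposited value was 2.02 in the bna4 and mbf1 arrays and 2.06 in the Htt103Q arrays, and array medians were 6.78 to 6.84 in the bna4 and mbf1 arrays and 6.35 to 6.47 in the arrays of the other set. Strain and set of values therefore cannot be told apart between bna4 and Htt103Q, whereas bna4 and mbf1 share their set. For this reason the text dwells on bna4-particular probe sets. These were called (limma, Benjamini-Hochberg adjusted p under 0.05) against both Htt103Q and mbf1 in the same direction, without a call in that direction for mbf1 against Htt103Q. The median SD between replicates over probe sets was 0.0864 in bna4, 0.137 in mbf1 and 0.130 in Htt103Q. Median signal of the 18S ribosomal RNA controls stood at 11.1 to 11.2 in bna4, 9.53 to 10.7 in mbf1 and 5.34 to 6.73 in Htt103Q. The excess of actin signal at the 3′ over the 5′ end was 0.10 to 0.16 in bna4, -0.33 to 0.06 in mbf1 and 0.00 to 0.22 in Htt103Q. Of the 15 arrays, the first ume1 array had 18S signal of 10.4 as well. The MATa-specific genes MFA1, MFA2, STE2, STE6, BAR1 and AGA2 read 8.12 to 11.5 in bna4 and 8.24 to 13.0 in Htt103Q, as labelled, whereas MF(ALPHA)1, MF(ALPHA)2, STE3 and SAG1 of MATα cells read at most 5.34 in bna4 and 5.24 in Htt103Q. LEU2 and MET17, deleted in BY4741, each had a probe set at the floor, the lowest value reported, in all 9 arrays of the 3 groups. GAL1, GAL2, GAL7 and GAL10, induced by galactose, read between 12.4 and 13.2 in bna4 and between 12.4 and 13.3 in Htt103Q, and none was called between them.

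BNA4 itself was nearly absent from its own deletion, and of the other 5 genes of the de novo route only BNA1 met the criteria for a bna4-particular change. Signals of BNA4 were 2.04, 2.04 and 2.27 in bna4, 7.72, 7.85 and 7.95 in mbf1 and 6.54, 6.87 and 6.66 in Htt103Q. The groups did not overlap, and 2 of the 3 bna4 arrays lay at the floor. The difference was -4.57 against Htt103Q (adjusted p = 3e-10) and -5.72 against mbf1 (adjusted p = 1.11e-10). BNA1, which encodes 3-hydroxyanthranilate dioxygenase and acts downstream of BNA4, read 9.44, 9.21 and 9.20 in bna4, 10.14, 10.08 and 10.03 in mbf1 and 10.33, 10.14 and 10.08 in Htt103Q. Every bna4 array lay below every array of both other groups. BNA1 fell to 53.5% of the Htt103Q level (log2 -0.90 ± 0.186, SE, adjusted p = 0.00232) and to 57.5% of the mbf1 level (-0.80, adjusted p = 0.0186). BNA1 was lower still in the ume1Δ strain, at 9.08, 8.80 and 8.47. Its call against mbf1 was lost in 4 of 6 fits with 1 array left out, without bna4 replicate 2 or 3 or mbf1 replicate 1 or 2, with adjusted p up to 0.0707.

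**Figure D1:**
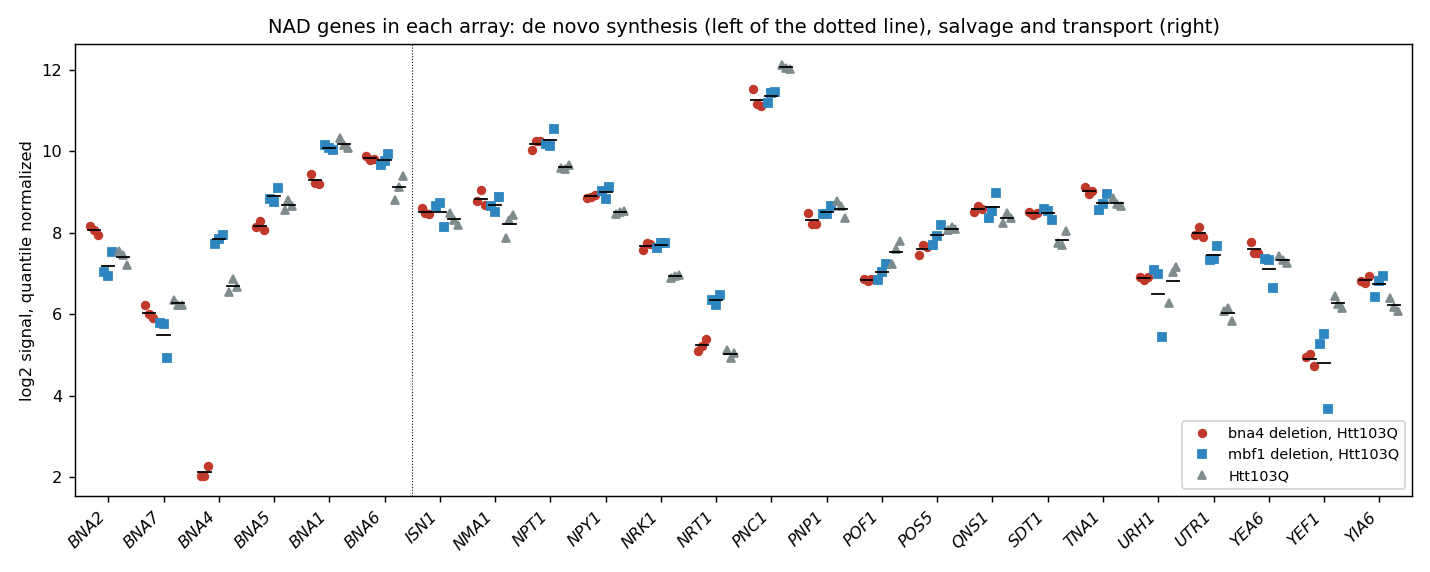
Log2 signal (quantile normalized) of each array for the genes of NAD synthesis with 1 probe set, de novo genes left of the dotted line and salvage and transport genes right of it, with bna4 (red circles), mbf1 (blue squares) and Htt103Q (grey triangles) side by side and horizontal bars at group means. BNA4 lies near 2 in bna4 alone, and BNA1 is lower in bna4 than in both other groups. Most salvage genes, NRK1 among them, stand at like levels in bna4 and mbf1, whereas UTR1 is higher in bna4 than in mbf1.

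The other de novo genes did not set bna4 apart. BNA2, the dioxygenase that opens the tryptophan ring, read 8.16, 8.06 and 7.95 in bna4, 7.04, 6.94 and 7.54 in mbf1 and 7.56, 7.46 and 7.20 in Htt103Q. The bna4 arrays lay above all others, yet the differences of 0.65 (adjusted p = 0.1) and 0.88 (adjusted p = 0.0915) missed the threshold. BNA5, or kynureninase, differed by -0.51 against Htt103Q (adjusted p = 0.294), and BNA7, the formylkynurenine formamidase, by -0.22 (adjusted p = 0.476). BNA6, quinolinate phosphoribosyltransferase, was 0.71 higher than in Htt103Q (adjusted p = 0.00557) and differed by 0.04 from mbf1 (adjusted p = 1.0), in which it was 0.67 higher than in Htt103Q as well.

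Among 19 measured genes of NAD salvage and transport, none was bna4-particular, although 5 were called higher and 3 lower against Htt103Q. Over all 5656 genes, 19.9% were called higher and 29.8% lower in that comparison, and the list's median change was 0.23, beside -0.10 over all genes. UTR1, an NAD kinase, read 7.94, 8.14 and 7.89 in bna4, 7.32, 7.36 and 7.69 in mbf1 and 6.08, 6.14 and 5.85 in Htt103Q. It was higher than in both groups (1.97 against Htt103Q, adjusted p = 4e-07, and 0.53 against mbf1, adjusted p = 0.0192), with the call against mbf1 lost in 3 of 6 fits that left out 1 array (adjusted p up to 0.0845), and mbf1 was itself 1.43 above Htt103Q. PNC1, the nicotinamidase, read 11.5, 11.2 and 11.1 in bna4, 11.2, 11.4 and 11.4 in mbf1 and 12.1, 12.0 and 12.0 in Htt103Q, a fall of 0.80 against Htt103Q (adjusted p = 0.0189) that was lost in 3 of 6 such fits (adjusted p up to 0.0664). The nicotinamide riboside transporter NRT1 was the one member lower in bna4 than in mbf1 (-1.11, adjusted p = 0.00105), with a difference of 0.21 against Htt103Q (adjusted p = 0.316). With the deposited values unscaled, 10 members were called higher and 1 lower against Htt103Q, and with arrays centred on their medians 3 and 4, while none was bna4-particular under either scaling. Of the chromosomal neighbours of BNA4, ATP1 differed by 0.17 (adjusted p = 0.117). BRN1 read 2.31, 2.36 and 2.35 in bna4 and lay at the floor in all 3 Htt103Q arrays.

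Across the array, 1932 probe sets (20.8%) were called higher and 2156 (23.2%) lower in bna4 than in Htt103Q, or 44.1% in all. The arrays of bna4 and Htt103Q did not overlap in 68.8% of probe sets. Of these calls, 68.5% were also made in the same direction for mbf1 against Htt103Q, a comparison that shares the Htt103Q arrays and called 17.4% of probe sets higher and 19.1% lower, 36.5% in all. The calls made in both deletions in 1 direction covered 30.2% of all probe sets. Against mbf1, in the same processing set, 446 probe sets (4.81%) were called higher and 532 (5.74%) lower in bna4, or 10.5% in all, and arrays did not overlap in 37.3%. The bna4-particular probe sets numbered 213 higher (2.3%) and 260 lower (2.8%), together 5.1%. The definition uses mbf1 and Htt103Q and not the ume1Δ strain, a further deletion in the series whose arrays are in the processing set of Htt103Q. Of these probe sets, 183 of those that rose and 241 of those that fell also had all bna4 arrays beyond all 3 arrays of the ume1Δ strain on the same side, where bna4 and ume1 arrays did not overlap in 65.0% of all probe sets. Of the genes named here, BNA1, SFC1, ACS1, MDH2, AAC3, CRC1, MEP2, DUR3, AGP1, AGA1, SST2, KAR4 and FDH1 were not beyond the ume1 arrays in this way. The bna4-particular probe sets covered 171 genes with a rise and 242 with a fall, or 3.02% and 4.28% of genes. A change of at least 1 on the log2 scale in both comparisons was reached by 92 of those that rose and by 74 of those that fell. Scaling moved the balance of directions against Htt103Q, of which 47.3% were rises after quantile normalization, 66.4% in the deposited values (2730 higher, 1382 lower) and 30.6% after median centring (1698 higher, 3848 lower), which shifted the median probe set by -0.33. Against mbf1 the share of rises was 45.6%, 40.7% and 45.1%. The counts of gene groups below stand against the shares over all genes, which were 19.9% called higher and 29.8% lower against Htt103Q, 5.85% and 7.34% against mbf1, and 3.02% and 4.28% bna4-particular. Over all genes the median change was -0.10 against Htt103Q and 0.0 against mbf1.

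The 12 largest bna4-particular rises, ranked by the smaller of the changes against Htt103Q and mbf1, were DAN1, HES1, HXT2, FHN1, SPS100, COB, ADY2, YOL014W, TIR3, CTA1, TIR4 and SPG1. They were chosen among probe sets whose bna4 arrays overlapped neither Htt103Q nor mbf1, so lack of overlap with these groups follows from the choice. For each of them all 3 bna4 arrays lay above all 12 other arrays of the series. These include the Htt25Q and ume1 arrays, which the choice did not use. All 12 remained called against both groups in the deposited and in the median centred values. Only 6 and 9 of them counted as bna4-particular there, since mbf1 was then also called higher than Htt103Q for the others.

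**Figure D2:**
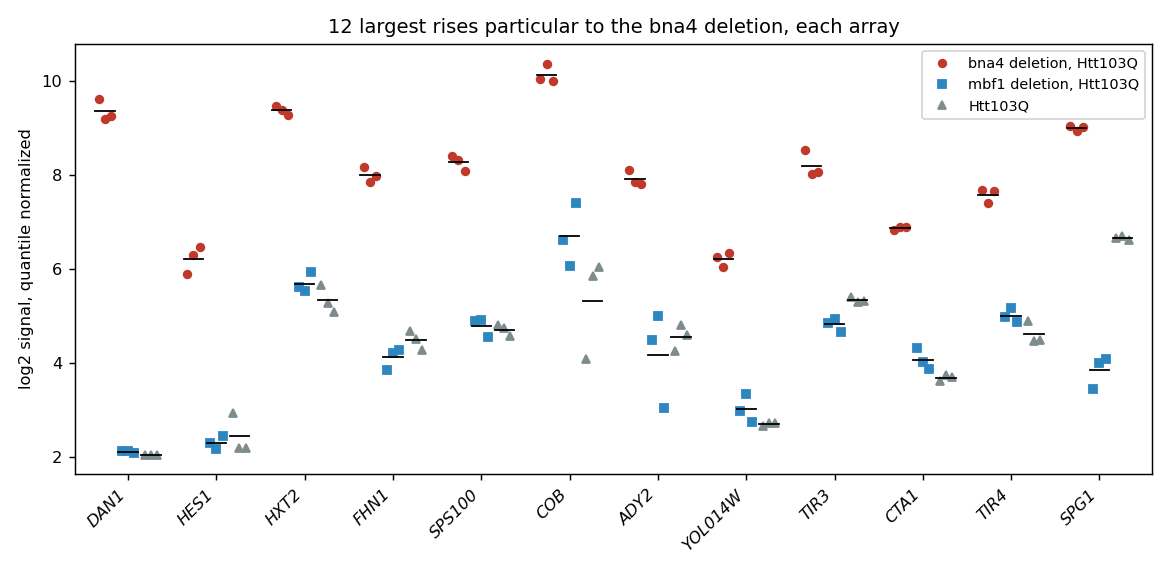
Log2 signal (quantile normalized) in each array for the 12 largest rises particular to the bna4 deletion, with bna4 (red circles), mbf1 (blue squares) and Htt103Q (grey triangles) side by side for each gene and bars at group means. By the rule of choice the 3 bna4 arrays lie above the arrays of both other groups in all 12 genes. DAN1 is at or near the floor of about 2 in the other 2 groups.

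DAN1, a mannoprotein of the anaerobic cell wall, read 9.61, 9.19 and 9.26 in bna4, 2.12, 2.12 and 2.08 in mbf1 and 2.04 in each Htt103Q array. The Htt103Q arrays were at the floor, so the rise was at least 159-fold (log2 7.31, adjusted p = 2.21e-13), and against mbf1, close to the floor, it was 7.25 (adjusted p = 7.29e-13). The groups were more than 7 units apart, with no bna4 array near the others. TIR1 of the same family read 11.65, 11.71 and 11.78 in bna4, 4.77, 4.83 and 4.90 in mbf1 and 4.15, 3.86 and 4.29 in Htt103Q. It was 7.61 above Htt103Q (adjusted p = 2.01e-10) and 6.88 above mbf1 (adjusted p = 1.77e-09). It was not counted as bna4-particular because mbf1 also lay above Htt103Q, by 0.73 (adjusted p = 0.0112). TIR3 read 8.52, 8.01 and 8.05 in bna4, 4.85, 4.93 and 4.65 in mbf1 and 5.40, 5.28 and 5.32 in Htt103Q, a rise of 2.86 ± 0.161 against Htt103Q (SE) and of 3.38 against mbf1. TIR4 rose by 2.97 ± 0.169 and 2.58 and TIR2 by 0.57 and 0.51, the call against mbf1 being lost without bna4 replicate 2 (adjusted p = 0.05). These genes belong to a family of similar sequences, and the files do not say how far a probe set can tell its members apart.

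Other leading rises belong to no single pathway. FHN1, a plasma membrane protein, read 8.16, 7.85 and 7.98 in bna4, 3.85, 4.2 and 4.28 in mbf1 and 4.67, 4.50 and 4.26 in Htt103Q, an 11.5-fold rise over Htt103Q and a 14.8-fold rise over mbf1. SPS100, a spore wall protein whose gene overlaps the transcript SUT169, read 8.39, 8.31 and 8.09 in bna4, 4.89, 4.90 and 4.55 in mbf1 and 4.79, 4.74 and 4.57 in Htt103Q. SPG1, needed for survival in stationary phase, read 9.04, 8.93 and 9.02 in bna4, 3.43, 3.99 and 4.08 in mbf1 and 6.65, 6.69 and 6.62 in Htt103Q. By the rule of choice none of these groups of arrays overlapped with bna4. SPG1 differed by 2.35 from Htt103Q and by 5.16 from mbf1, in which it differed by -2.82 from Htt103Q.

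Several genes of the anaerobic cell wall and of sterol uptake were bna4-particular rises. Of 14 measured, 10 were called higher and 0 lower against Htt103Q, 7 and 0 against mbf1, and 6 were bna4-particular, beside 3.02% of all genes. The median change was 0.91 against Htt103Q and 0.61 against mbf1, beside -0.10 and 0.0 over all genes, while mbf1 minus Htt103Q had a median of 0.14. In the deposited and the median centred values 12 and 11 members were higher than in Htt103Q and 6 in both were higher than in mbf1, with 3 bna4-particular in each. Regulators of the group were among the risers. UPC2, a transcription factor that senses sterols and activates sterol uptake and anaerobic wall genes, read 5.99, 5.48 and 6.07 in bna4, 4.23, 4.17 and 3.86 in mbf1 and 3.48, 3.70 and 3.76 in Htt103Q. Its groups did not overlap, and it rose by 2.20 ± 0.228 (SE, adjusted p = 1.85e-05) and by 1.76 against mbf1. SUT1, which promotes sterol uptake, rose by 1.03 and 1.40. The sterol importers PDR11 and AUS1 were 1.04 and 0.79 above Htt103Q and were not called against mbf1. HES1, an oxysterol-binding protein homologue that belongs to none of these lists, read 5.89, 6.28 and 6.45 in bna4, 2.28, 2.17 and 2.43 in mbf1 and 2.93, 2.17 and 2.18 in Htt103Q, a difference of 3.78 from Htt103Q (adjusted p = 2.4e-07) and of 3.91 from mbf1 (adjusted p = 1.6e-06). No fold is given for HES1, since its values in mbf1 and Htt103Q were near the lowest on these arrays.

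Some genes that yeast uses when heme or oxygen is scarce were called higher too. Of 21 genes of heme synthesis and hypoxia, 7 were called higher and 3 lower against Htt103Q, beside 19.9% of all genes higher, 5 and 1 against mbf1, beside 5.85%, and 3 and 1 were bna4-particular. AAC3, the ADP/ATP carrier of anaerobic cells, read 6.01, 5.79 and 5.27 in bna4, 4.03, 4.4 and 3.88 in mbf1 and 4.0, 4.25 and 4.35 in Htt103Q. No bna4 array overlapped the other groups, and the change was 1.49 against Htt103Q (adjusted p = 0.000436) and 1.59 against mbf1 (adjusted p = 0.00153). HEM13, coproporphyrinogen oxidase, rose by 1.24 and 1.34. OLE1, the fatty acid desaturase, rose by 0.68 and 0.76, though its call against mbf1 was lost in 5 of 6 fits with 1 array left out (adjusted p up to 0.0841). ANB1, the hypoxic form of translation factor eIF5A, read 8.91, 8.16 and 8.24 in bna4, 5.09, 5.03 and 5.54 in mbf1 and 4.33, 3.98 and 4.06 in Htt103Q. It was higher than in both groups (4.31 and 3.22), and mbf1 was above Htt103Q as well (1.1, adjusted p = 0.0112). YHB1, a flavohemoglobin that detoxifies nitric oxide, went the other way in 3 of its 4 probe sets, of which the lowest against Htt103Q differed by -1.33 from Htt103Q and by -1.93 from mbf1, while all its probe sets differed from mbf1 by -2.19 to 0.06. The list's median was 0.19 in both comparisons.

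Sterol synthesis itself was mixed. Of 28 ergosterol genes, 10 were called higher and 3 lower against Htt103Q and 3 and 3 against mbf1, with medians of 0.31 and 0.09. Bna4-particular were ERG25, the methylsterol monooxygenase (0.93 and 0.86), and ERG6, the sterol methyltransferase (0.53 and 0.53), among rises, and HMG1, an HMG-CoA reductase, among falls (-0.80 and -1.10). The calls of ERG25 and ERG6 against mbf1 were lost in 5 and 6 of 6 fits with 1 array left out, with adjusted p up to 0.0855 and 0.132. The median against Htt103Q was -0.05 after median centring.

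Hexose transporters formed another group with bna4-particular rises. HXT2, a high-affinity glucose transporter, read 9.45, 9.38 and 9.28 in bna4, 5.60, 5.52 and 5.93 in mbf1 and 5.65, 5.26 and 5.07 in Htt103Q. The 16.5-fold rise over Htt103Q (log2 4.04 ± 0.294, adjusted p = 1.16e-06) was close in size to the 12.9-fold rise over mbf1 (adjusted p = 2e-05), and the arrays did not overlap. HXT5, a transporter of slow-growing cells, read 8.78, 8.87 and 8.68 in bna4, 5.61, 5.75 and 5.75 in mbf1 and 7.40, 7.79 and 7.72 in Htt103Q. Its rise was 1.14 over Htt103Q, a call lost without bna4 replicate 2 or Htt103Q replicate 1 (adjusted p up to 0.0609), and 3.07 over mbf1, in which HXT5 differed by -1.93 from Htt103Q. HXT3 and HXT1, low-affinity transporters, rose by 1.09 and 1.18 against Htt103Q and by 1.85 and 0.81 against mbf1, with the call of HXT1 against mbf1 lost without mbf1 replicate 1 (adjusted p = 0.0545). RGT1, the repressor of HXT genes, read 7.21, 7.18 and 7.29 in bna4, 8.52, 8.70 and 7.92 in mbf1 and 8.75, 8.57 and 8.39 in Htt103Q. It fell to 39.4% of the Htt103Q level (adjusted p = 0.000716) and to 45% of the mbf1 level (adjusted p = 0.00851), with no overlap. At 3513 bases RGT1 is among the long genes, in which falls against mbf1 were frequent, as described below. MTH1, which works with Rgt1 in repressing HXT genes, rose by 1.22 and 1.15. Of the 19 genes of hexose transport, in which MTH1 is not counted, 5 were called higher and 4 lower against Htt103Q, 4 and 1 against mbf1, and 4 and 1 were bna4-particular, with medians of 0.00 and 0.16. The HXT genes are near copies of each other in part, so signal shared between them could not be parted.

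Enzymes and carriers used for growth on acetate and other carbon sources without sugar rose in part. ADY2, an acetate transporter, read 8.10, 7.85 and 7.80 in bna4, 4.48, 4.99 and 3.02 in mbf1 and 4.25, 4.81 and 4.58 in Htt103Q. It was 10.4-fold above Htt103Q (adjusted p = 0.000211) and 13.5-fold above mbf1 (adjusted p = 0.000646), with the lowest bna4 array well above the highest of the others. PCK1, the gluconeogenic phosphoenolpyruvate carboxykinase, read 8.10, 8.15 and 8.32 in bna4, 6.86, 6.38 and 5.84 in mbf1 and 5.69, 5.63 and 5.94 in Htt103Q, a rise of 2.43 ± 0.364 and of 1.83. SFC1, the mitochondrial succinate-fumarate carrier, rose by 1.80 and 1.44. ACS1, acetyl-CoA synthetase, rose by 0.79 and 0.98 and was higher still in the ume1Δ strain (7.91, 7.86 and 7.90, against 7.73, 7.68 and 7.67 in bna4). The peroxisomal isocitrate dehydrogenase IDP3 rose by 0.80 and 0.75, and the pyruvate carboxylase PYC1 by 0.71 and 1.01. PYC2, the isozyme of PYC1 and a gene of 3543 bases, was a bna4-particular fall (-0.65 and -0.62). MDH2, the cytosolic malate dehydrogenase, rose by 0.74 and 1.06, its call against Htt103Q being lost without Htt103Q replicate 3 (adjusted p = 0.0503). CIT2, the peroxisomal citrate synthase, was 3.13 above Htt103Q and 1.70 above mbf1, which was itself 1.43 above Htt103Q. Its call against mbf1 was lost when any bna4 array was left out (adjusted p up to 0.0649). In all, 9 of 31 genes of the citric acid and glyoxylate cycles and gluconeogenesis were called higher and 7 lower against Htt103Q, and 10 and 1 against mbf1. The bna4-particular members were 6 higher and 1 lower, or 4 and 1 in the deposited and 3 and 0 in the median centred values. The list's medians were 0.11 against Htt103Q and 0.23 against mbf1.

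**Figure D3:**
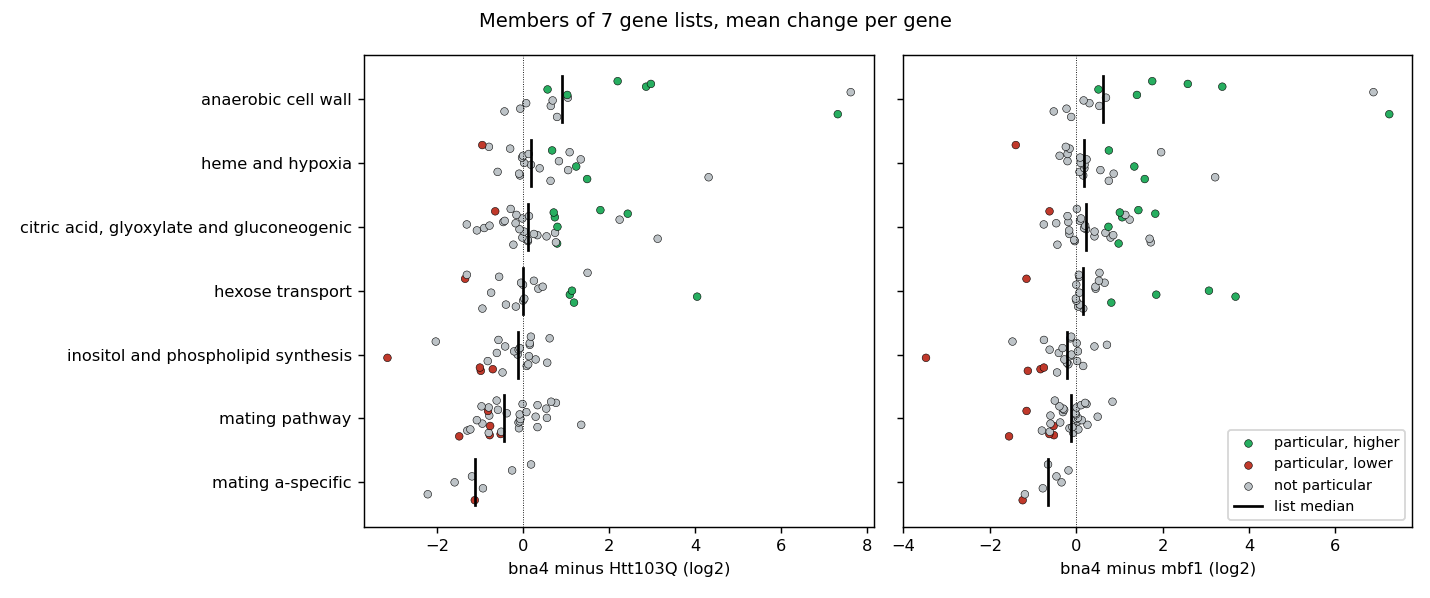
Mean log2 change of each measured member of 7 gene lists, bna4 minus Htt103Q on the left and bna4 minus mbf1 on the right, with bna4-particular rises in green, bna4-particular falls in red, other members in grey and a vertical bar at the list median. The anaerobic cell wall list lies furthest to the right in both panels, with a median of 0.91 against Htt103Q, and the a-specific mating genes furthest to the left, with a median of -1.12.

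CTA1, the peroxisomal catalase, read 6.82, 6.89 and 6.89 in bna4, 4.30, 4.01 and 3.86 in mbf1 and 3.60, 3.74 and 3.68 in Htt103Q. The rise was 9.15-fold over Htt103Q (adjusted p = 3.78e-07) and 7.02-fold over mbf1 (adjusted p = 9.28e-06), with no overlap. YAT2, a carnitine acetyltransferase that passes acetyl units between compartments, read 7.88, 8.48 and 8.32 in bna4, 6.93, 6.50 and 5.5 in mbf1 and 5.87, 5.47 and 5.52 in Htt103Q, rising by 2.61 and 1.92. CRC1, the carnitine carrier of mitochondria, rose by 0.89 and 0.75, the dienoyl-CoA reductase SPS19 by 1.1 and 0.96, and the fatty acyl importer subunit PXA2 by 0.73 and 0.85. Falls included PIP2, a transcription factor of the oleate response, which fell to 32.7% of the Htt103Q level (adjusted p = 3.63e-05) and 41% of the mbf1 level (adjusted p = 0.0011). PEX6 fell by 0.77 and 0.82, with the second call lost in all 6 fits with 1 array left out (adjusted p up to 0.0856). Of 44 genes of peroxisomes and beta-oxidation, in which CTA1 is not counted, 4 were bna4-particular in each direction. Against Htt103Q 7 were called higher and 13 lower, and in the deposited values 18 and 4, while against mbf1 10 were called higher and 4 lower.

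Defence against oxidants included rises in cytosolic peroxiredoxins and a fall in the mitochondrial superoxide dismutase. TSA2, an inducible peroxiredoxin, read 8.63, 8.47 and 8.71 in bna4, 6.94, 6.83 and 6.56 in mbf1 and 6.84, 6.83 and 6.93 in Htt103Q. It rose 3.33-fold over Htt103Q (adjusted p = 7.78e-05) and 3.55-fold over mbf1 (adjusted p = 0.000372), and AHP1, a further peroxiredoxin, rose by 0.65 and 0.49. SOD2, the manganese superoxide dismutase, read 10.17, 10.15 and 10.36 in bna4, 11.04, 10.97 and 10.91 in mbf1 and 11.14, 11.15 and 10.69 in Htt103Q. It fell to 58.8% of the Htt103Q level (adjusted p = 0.000576) and 59.6% of the mbf1 level (adjusted p = 0.00328). Of 43 genes of oxidative stress defence, CTA1 included, 12 were called higher and 13 lower against Htt103Q, 4 and 1 against mbf1, and 4 and 1 were bna4-particular, with medians of -0.02 and 0.07. Among 43 nuclear genes of oxidative phosphorylation, 0 were bna4-particular rises and 2 were falls, CYC1 (cytochrome c, -1.09 and -1.28, its call against mbf1 lost in 3 of 6 fits with 1 array left out, adjusted p up to 0.0612) and COX12 (-0.43 and -0.72, its call against Htt103Q lost without bna4 replicate 3, adjusted p = 0.0536).

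Some permeases for nitrogen sources rose as well, whereas the amino acid permease ALP1 was a bna4-particular fall (-0.83 against Htt103Q and -1.28 against mbf1). MEP2, the high-affinity ammonium permease, read 8.37, 8.40 and 8.57 in bna4, 6.69, 6.85 and 6.13 in mbf1 and 7.04, 7.17 and 7.29 in Htt103Q. It rose 2.44-fold over Htt103Q (adjusted p = 0.00189) and 3.71-fold over mbf1 (adjusted p = 0.000821), without overlap. In the ume1Δ strain MEP2 read 8.33, 8.79 and 9.10, which overlapped its bna4 values. The urea and polyamine permease DUR3 rose by 0.85 and 1.60 and the amino acid permease AGP1 by 0.48 and 1.43, and both calls against Htt103Q were lost in most fits with 1 array left out (5 and 6 of 6, adjusted p up to 0.0901 and 0.121). Of 33 nitrogen catabolite genes, 16 were called higher and 7 lower against Htt103Q, 8 and 1 against mbf1, and 4 and 0 were bna4-particular, with medians of 0.48 and 0.28. SNZ1, of pyridoxine synthesis, read 9.42, 9.82 and 9.70 in bna4, 6.84, 6.87 and 6.82 in mbf1 and 7.91, 7.56 and 7.74 in Htt103Q, a rise of 1.91 and 2.80. It was 1 of 3 bna4-particular members among 42 amino acid genes under the activator Gcn4, with the aminotransferase BAT2 and the asparagine synthetase ASN1, whose call against mbf1 was lost in all 6 fits with 1 array left out (adjusted p up to 0.142).

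Metal and phosphate genes gave scattered changes in both directions. IZH4, a membrane protein of zinc homeostasis, read 8.48, 8.45 and 8.34 in bna4, 5.82, 5.82 and 6.14 in mbf1 and 6.30, 6.14 and 6.07 in Htt103Q. It rose 4.76-fold (adjusted p = 2.82e-07) and 5.65-fold (adjusted p = 1.18e-06), and its relative IZH2 rose by 1.1 and 0.91, its call against mbf1 lost without mbf1 replicate 1 (adjusted p = 0.0507). PHO89, a sodium-phosphate cotransporter, rose by 1.99 and 2.98 and the vacuolar phosphatase PHO8 by 1.48 and 0.99, whereas the vacuolar phosphate exporter PHO91 fell by 0.95 against Htt103Q and 0.76 against mbf1. Of 26 phosphate genes, 3 were bna4-particular rises and 2 were falls, and of 18 zinc genes 2 and 1. Of 33 iron genes none was bna4-particular.

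COB, the gene for cytochrome b on mitochondrial DNA, was among the largest rises. Its leading probe set read 10.03, 10.37 and 10.003 in bna4, 6.60, 6.06 and 7.41 in mbf1 and 4.07, 5.84 and 6.04 in Htt103Q. Both of its probe sets were called higher against Htt103Q, by 4.82 and 3.88, and they were 3.44 and 2.89 above mbf1. COB overlaps the intron genes BI2, BI3 and BI4. Of 16 genes of mitochondrial DNA, 4 were called higher and 4 lower against Htt103Q and 5 and 0 against mbf1, and COB was the 1 bna4-particular member, with 2 such members in the deposited values and 3 after median centring. Ribosomal RNA controls were likewise highest in bna4, as given above, and their part in the result was not tested. Among 72 mitochondrial ribosomal protein genes, encoded in the nucleus, 2 were bna4-particular rises.

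Apart from the deleted BNA4, INO1 had the largest bna4-particular fall among genes up to 2000 bases, ranked by the smaller of its changes against Htt103Q and mbf1. It encodes inositol-3-phosphate synthase, the first enzyme of inositol synthesis. Signals were 8.71, 8.31 and 8.42 in bna4, 12.04, 11.80 and 12.04 in mbf1 and 11.81, 11.58 and 11.50 in Htt103Q. All bna4 arrays lay below all 12 other arrays of the series, the lowest of which read 10.53. INO1 fell to 11.3% of the Htt103Q level (log2 -3.15 ± 0.198, adjusted p = 3.7e-07) and to 8.97% of the mbf1 level (adjusted p = 1.54e-06). Some phospholipid genes were bna4-particular falls as well. CHO2, the phosphatidylethanolamine methyltransferase, fell by 0.98 and 1.12, the cholinephosphotransferase CPT1 by 1.00 and 0.75 and the choline kinase CKI1 by 0.70 and 0.83. PSD1, the mitochondrial phosphatidylserine decarboxylase, fell by 2.03 against Htt103Q and by 1.48 against mbf1, and mbf1 fell by 0.55 against Htt103Q. Of 23 genes of inositol and phospholipid synthesis, 1 was called higher and 7 lower against Htt103Q, a share of falls near the 29.8% of all genes. Against mbf1 1 and 6 were called, and 0 and 4 were bna4-particular, beside 4.28% of all genes that were bna4-particular falls. The medians were -0.12 and -0.22, beside -0.10 and 0.0 over all genes. In the deposited values the bna4-particular members were 1 higher and 2 lower.

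Some mating genes were bna4-particular falls. AGA2 and AGA1 encode the subunits of a-agglutinin, the adhesion protein of MATa cells. AGA2 read 8.12, 8.15 and 8.19 in bna4, 9.43, 9.23 and 9.52 in mbf1 and 9.14, 9.25 and 9.43 in Htt103Q. With no overlap, it fell to 46% of the Htt103Q level (adjusted p = 0.00633) and 42.3% of the mbf1 level (adjusted p = 0.0141). AGA1 fell by 1.48 and 1.56, with the call against mbf1 lost in all 6 fits with 1 array left out (adjusted p up to 0.0872). Within the pheromone pathway, the cell cycle inhibitor FAR1 fell by 0.52 and 0.62, the G protein regulator SST2 by 0.81 and 1.15, the transcription factor KAR4 by 0.76 and 0.52 and the microtubule motor partner CIK1 by 0.77 and 0.52. The calls of SST2 were lost in all fits with 1 array left out, with adjusted p up to 0.138, and that of KAR4 against mbf1 in 4 of 6, with adjusted p up to 0.0943. Of 32 pathway genes, 3 were called higher and 14 lower against Htt103Q, beside 29.8% of all genes called lower. Against mbf1 0 and 7 were called, beside 7.34% lower over all genes, and 0 and 5 were bna4-particular, with medians of -0.44 and -0.12. Of 7 a-specific genes, 0 and 4 were called against Htt103Q and 0 and 2 against mbf1, with medians of -1.12 and -0.65. The pheromone genes MFA1 and MFA2 were lower than in Htt103Q in both deletions, MFA2 by 1.19 in bna4 and by 0.73 in mbf1. In the deposited values 6 pathway genes were called higher and 7 lower against Htt103Q, with a median of -0.06.

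Most falls particular to bna4 lay in long genes. The 242 genes with such a fall had a median length of 3069 bases in the R64 annotation, and 52.1% of them were 3000 bases or longer, whereas the 171 genes with a rise had a median of 1050 bases and 4.09% in that class. Over all genes the median was 1216.5 bases and the share 8.43%. Genes of 3000 bases or more had a median difference of -0.54 against mbf1 and -0.60 against Htt103Q, and 40.7% of them were called lower than in mbf1. Genes of 2000 bases or less had medians of 0.03 and -0.02, and 3.07% of them were called lower than in mbf1. The difference between mbf1 and Htt103Q had a median of -0.08 in the long genes. Of the falls named above, PYC2 (3543 bases), RGT1 (3513), HMG1 (3165) and PEX6 (3093) are long genes, and PIP2 (2991) is close to that class. CHO2, FAR1, AGA1, SST2 and PHO91 are between 2000 and 3000 bases long, a class in which 10.9% of genes were called lower than in mbf1. The 18S ribosomal RNA signal was also highest in bna4. The excess of actin signal at the 3′ over the 5′ end, 0.10 to 0.16 in bna4, was above every mbf1 array (-0.33 to 0.06) and within the range of Htt103Q (0.00 to 0.22). Of all 15 arrays, Htt25Q replicate 1 had the highest excess, 2.48. In that array the leading probe sets of NCR1, NUP170 and YPK9, falls described below, read 2.46, 2.07 and 2.81. The other Htt25Q arrays read 6.88 and 6.64, 5.3 and 5.09, and 5.01 and 5.28. PDR12, ATG15, ECM29, TOR1, GEA2 and DNF2, also among the largest falls, likewise read lower in replicate 1 than in both other arrays. ATG15 read 3.88, beside 6.33 and 6.14, TOR1 4.54, beside 6.07 and 6.13, and DNF2 6.84, beside 7.39 and 7.27. INO1 read 11.82, beside 12.33 and 12.55. NMD5, a further large fall, was higher in replicate 1 (7.73, beside 6.50 and 6.71), and SPT5 was level (7.61, beside 7.65 and 7.65). The part of RNA quality in these falls was not tested.

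**Figure D4:**
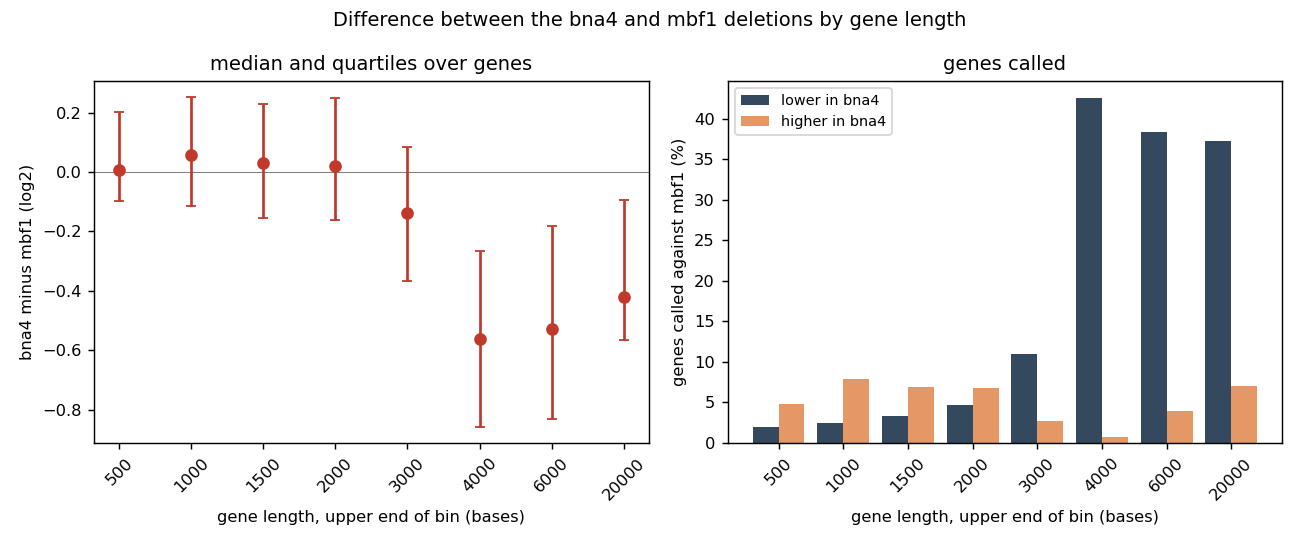
Median and quartiles over genes of the difference bna4 minus mbf1 (log2, left) and percent of genes called against mbf1 (right, dark bars lower and light bars higher in bna4), in bins of gene length labelled by their upper end in bases. Genes up to 2000 bases centre near 0, genes of 3000 to 4000 bases have a median of -0.56, and 42.5% of the genes of 3000 to 4000 bases are called lower.

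Within long genes the probe sets did not move together. The 12 largest falls were chosen and ranked as the rises were, with BNA4 itself left out. Among them, NCR1, SPT5, PDR12, NUP170, ECM29, YPK9, TOR1, NMD5, GEA2 and DNF2 were longer than 3000 bases, and ATG15 and INO1 were shorter. With 1 array left out, the calls of NCR1, NUP170, YPK9, TOR1 and GEA2 against mbf1 were lost in 2 to 6 of 6 fits, with adjusted p up to 0.158. The call of ATG15 against mbf1 was lost in 5 of 6 (adjusted p up to 0.108). NUP170 also lost its call against Htt103Q in 5 of 6 (adjusted p up to 0.0885). SPT5, a transcription elongation factor, had a leading probe set at 4.28, 3.96 and 4.39 in bna4, 7.35, 7.79 and 6.66 in mbf1 and 8.17, 7.70 and 7.25 in Htt103Q. All 4 SPT5 probe sets were lower than in Htt103Q, by -3.49 to -1.08, but the differences from mbf1 ran from -3.05 to -0.10. NUP170, a nucleoporin, had 7 probe sets that ran from -2.21 to 2.23 against Htt103Q and from -2.73 to 1.41 against mbf1. The 9 probe sets of TOR1, the growth-controlling kinase, ran from -3.09 to 0.18 against Htt103Q. In CYR1, adenylate cyclase, 1 of 9 probe sets was a bna4-particular fall (-2.51) and 2 were bna4-particular rises, of up to 2.57.

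**Figure D5:**
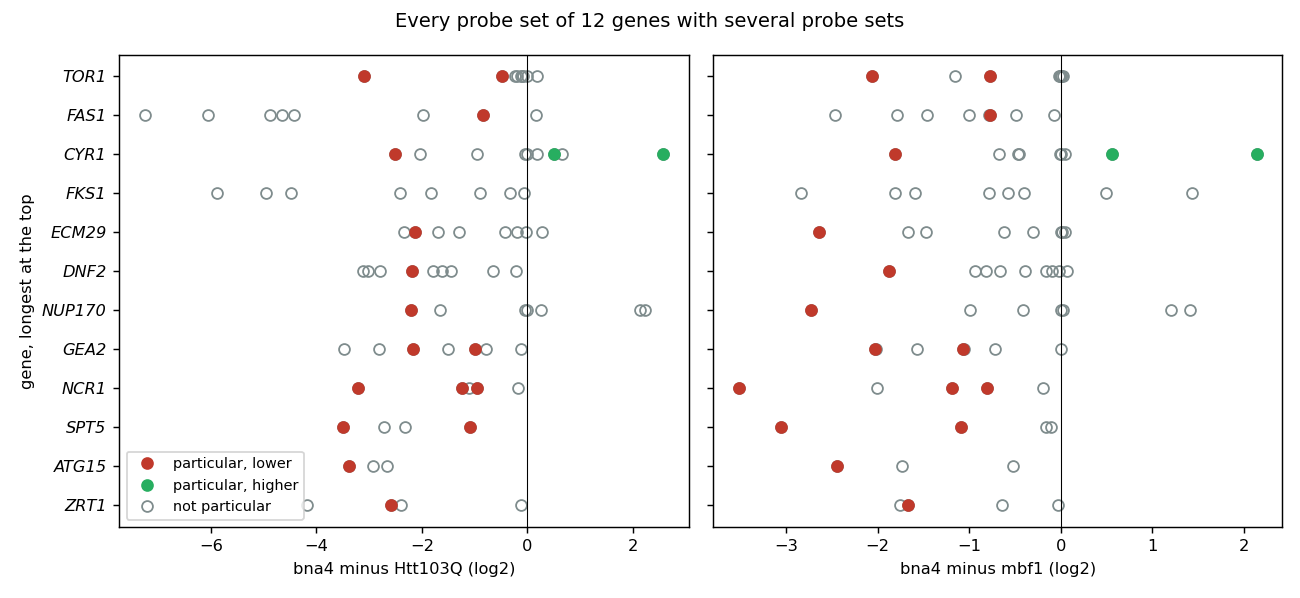
Log2 change of every probe set of 12 genes with several probe sets, bna4 minus Htt103Q on the left and bna4 minus mbf1 on the right, longest gene at the top, with filled points for bna4-particular probe sets (red lower, green higher) and open points for the rest. Probe sets of 1 gene spread over several units, as in FAS1 from -7.25 to 0.16 against Htt103Q, and in NUP170 and CYR1 they lie on both sides of 0.

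Few genes could be checked by more than 1 probe set. Of the 171 genes with a bna4-particular rise 12 had several, and of the 242 with a fall 42 had several. DDR48, a stress protein, was the single gene whose probe sets were all bna4-particular. Its probe sets read 10.22, 10.33 and 10.33, and 11.90, 11.54 and 11.39 in bna4, against 11.25, 11.29 and 11.45, and 12.55, 12.71 and 12.69 in mbf1. In Htt103Q they read 11.01, 11.04 and 11.02, and 12.48, 12.04 and 12.00, so that neither overlapped. DDR48 fell by 0.73 and 0.56 against Htt103Q (adjusted p = 0.0017 and 0.0432) and by 1.03 and 1.04 against mbf1. By the weaker standard that all probe sets were called in 1 direction against Htt103Q, COB, COS10, ICS2, MLP1 and RIM8 rose and ATG15, SNC1, SPT5 and DDR48 fell. The other genes with several probe sets, including DMC1 and SWR1 among rises, had probe sets that were not called or were called the other way.

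Falls in genes up to 2000 bases, chosen after the values were seen, touched stress enzymes and small mitochondrial and membrane proteins. GRE2, a methylglyoxal reductase, read 7.04, 7.22 and 7.09 in bna4, 8.81, 8.86 and 8.69 in mbf1 and 8.48, 8.38 and 8.30 in Htt103Q. It fell to 41.4% of the Htt103Q level (adjusted p = 0.00276) and 31.4% of the mbf1 level (adjusted p = 0.00231). COX26, a small protein of cytochrome oxidase supercomplexes, read 6.79, 6.83 and 6.93 in bna4, 8.28, 9.09 and 8.61 in mbf1 and 8.83, 9.61 and 9.18 in Htt103Q, falling to 19.6% and 28.6%. RAX1, which takes part in bud site selection, fell to 21.4% and 31.1%. These falls were chosen among probe sets whose bna4 arrays overlapped neither Htt103Q nor mbf1, so lack of overlap follows from the choice. ATG15, the vacuolar lipase of autophagy, read 3.52, 2.87 and 3.54 in bna4, 6.11, 6.09 and 5.04 in mbf1 and 7.35, 6.49 and 6.24 in Htt103Q. Its call against mbf1 was lost in 5 of 6 fits with 1 array left out, as were those of FDH1, YDL109C and the zinc transporter gene ZRT1 in all 6, with adjusted p up to 0.167.

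Some groups that differed strongly from Htt103Q did so in both deletions. Of 136 ribosome biogenesis genes, 64 were called higher and 7 lower against Htt103Q, but 1 and 2 against mbf1, with medians of 0.60 in bna4 and 0.52 in mbf1 against Htt103Q. Of 62 general stress genes, 5 were called higher and 26 lower against Htt103Q, and 2 and 5 against mbf1. CHA1, the serine deaminase, was the largest shared rise and read 10.13, 10.34 and 10.23 in bna4, 9.96, 10.03 and 10.13 in mbf1 and 3.08, 3.55 and 3.38 in Htt103Q. Neither deletion overlapped with Htt103Q, and bna4 differed from mbf1 by 0.19 (adjusted p = 0.703). The largest shared falls were single probe sets of the long genes FAS1 and FKS1. The leading FAS1 probe set read 2.91, 3.02 and 2.96 in bna4, 2.90, 3.08 and 8.26 in mbf1 and 10.84, 10.09 and 9.70 in Htt103Q, with the third mbf1 array apart from the other two, and FKS1 had the same pattern.

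Lysine synthesis separated the deletions through mbf1. Of 11 genes, 8 were called higher and 2 lower in bna4 than in Htt103Q, and 0 and 9 in bna4 than in mbf1, in which the list's median was 2.29 above Htt103Q. LYS9 read 7.86, 8.07 and 7.99 in bna4, 12.42, 12.28 and 12.55 in mbf1 and 8.63, 8.81 and 8.86 in Htt103Q. It differed by -0.80 from Htt103Q (adjusted p = 3.43e-05) and by -4.44 from mbf1 (adjusted p = 8.78e-11), while mbf1 was 3.65 above Htt103Q.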

How the data were processed

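The files hold log2 signals of an Affymetrix Yeast S98 array, 1 value per probe set and array, as the authors deposited them. The method of summary, background correction and normalization was not given in the sources used here. Lowest values and medians show that bna4 and mbf1 were processed apart from the other groups. The log2 values of 9275 yeast probe sets on 15 arrays were quantile normalized together and fitted with limma 3.58.1 in R 4.3.3 as 5 group means. Tests are two-sided, with Benjamini-Hochberg adjustment over all probe sets at 0.05. The labels do not say that replicates came from separate cultures, so p-values measure the spread between these samples, which may be technical. Array number limits the precision.

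Probe sets were named through the platform annotation updated by RefSeq identifiers: 6504 had 1 gene, 328 several and 2443 none. A gene was called where at least 1 probe set was called and none the other way, and its change is the mean over probe sets. A group counted as at the floor where its 3 arrays lay within 0.1 of the lowest value of their set, and a fold against it is a lower bound. No genome build was named, so gene lengths come from RefSeq's R64 annotation and no coordinates are given. Probe positions within genes were not used here.

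The members and the 46 gene lists were chosen with earlier results of these data known. Named genes were BNA4 with its neighbours, the NAD and strain marker lists, the 12 largest bna4-particular rises and falls whose arrays overlap neither group, genes with several probe sets all bna4-particular, up to 4 bna4-particular members per list, and the 3 largest changes shared with mbf1 each way. Other genes, among them TIR1, SUT1, ANB1, CIT2, PSD1 and falls in genes up to 2000 bases, were added after their values were seen. On simulated data for the bna4-particular rule, with 200 of 9275 probe sets changed, 61% of changes of log2 1 and 87% of log2 2 were recovered, with 0 false calls. The changed probe sets were drawn from the brighter ones only, so recovery in dim probe sets was not tested. The simulation held independent noise and no other difference between the groups, thus no shift by processing set or gene length. It therefore cannot tell how many false calls such shifts gave in the real data. Alternatives covered scaling, samples in the fit, dim probe sets, gene means, variance moderation, the replicate block, left-out arrays and gene length.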

Additional observations from a re-analysis of the deposited data

Results flagged for a closer look

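Control probe sets for ribosomal RNA, which enter no comparison of genes, differed between bna4 and Htt103Q in the deposited values. The median over 5 control probe sets was 5.17 higher in bna4 for 18S and 4.75 higher for 25S. The probe sets of each RNA differed widely, from 2.48 to 5.41 for 18S and from 0.64 to 5.30 for 25S. The 25S probe set with the smallest difference had means of 12.64 in bna4, 11.87 in mbf1 and 12.00 in Htt103Q. Array medians for 18S were 11.1 to 11.2 in bna4, 9.53 to 10.7 in mbf1 and 5.34 to 6.73 in Htt103Q, and for 25S 11.4 to 11.5 in bna4, 10.4 to 10.9 in mbf1 and 5.54 to 7.53 in Htt103Q. The yeast probe set of RDN18-1 moved with them, at 10.47, 10.49 and 10.48 in bna4, 9.66, 9.60 and 9.73 in mbf1 and 6.18, 5.36 and 3.46 in Htt103Q.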

How the results depend on the processing

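Of 4088 probe sets called against Htt103Q, 978 against mbf1 and 473 bna4-particular, the deposited values gave 4112, 879 and 387 and median centring 5546, 887 and 384. Restricting the test to genes up to 2000 bases, chosen after the data were seen and with fewer probe sets tested, gave 2178, 421 and 218. Against mbf1, 1504 were called with the bna4, mbf1 and Htt103Q arrays alone and 1541 without Htt25Q replicate 1, which also gave 710 bna4-particular probe sets. A change of at least 1 in both comparisons left 166. Genes whose several probe sets were all bna4-particular numbered 1 in the reported fit (DDR48), 5 with the compared groups only, 7 with the 3 groups and 6 without Htt25Q replicate 1. The cause of these differences was not tested. Leaving out 1 array of bna4, mbf1 or Htt103Q gave 3431 to 3661 calls against Htt103Q, 630 to 917 against mbf1 (630 without bna4 replicate 2), 304 to 454 bna4-particular and 0 to 1 agreeing genes. With the replicate number as a block (replicate block) the counts were 4129, 970, 450 and 1. Same-numbered bna4 and Htt103Q arrays correlated at 0.165, 0.0216 and 0.0432 in their deviations, and differently numbered ones at -0.2228 to 0.2275. No clear pairing by number was seen, though so few arrays cannot exclude it. Differences against Htt103Q changed sign for SSP1 (0.35 in the deposited values), for URA1 (-0.20), TRR1 (-0.0204), ATP1 (-0.40) and MET17 (-0.43) after median centring, and for NUP170 (0.10 with gene means). Of 5724 values of named genes over all settings, 5192 kept direction and side of the threshold, 479 lost the call, 47 gained it and 6 changed sign. The number of arrays and the floor limit small changes and dim genes: 1003 probe sets were at the floor in both bna4 and Htt103Q.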

Other observations

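The gene groups in this paragraph were not described above, and their counts stand against 3.02% of all genes with a bna4-particular rise and 4.28% with a fall. Of 45 proteasome genes, 0 were bna4-particular rises and 3 were falls, ECM29, NPL4 and RPN10, with list medians of -0.21 against Htt103Q and -0.15 against mbf1. ECM29, a gene of 5607 bases, had 1 bna4-particular probe set of 8. Its probe sets ran from -2.34 to 0.27 against Htt103Q and from -2.63 to 0.05 against mbf1. NPL4, a partner of the Cdc48 segregase, fell by 0.62 against Htt103Q and by 0.74 against mbf1. The call of RPN10 against mbf1 was lost without mbf1 replicate 1 (adjusted p = 0.0504). Of 35 genes of actin and endocytosis, 0 rose and 3 fell, BBC1, MYO5 and PAN1, all longer than 3000 bases. Of 11 sirtuin and silencing genes, NET1 was the single bna4-particular member, and it overlaps APQ13. Of 45 cytosolic chaperone genes 2 rose, among them the Hsp40 APJ1. It read 7.86 in each bna4 array to 2 decimals, 6.01, 6.44 and 5.68 in mbf1 and 6.22, 6.42 and 6.37 in Htt103Q, a rise of 1.53 and 1.82. Of 80 cytosolic ribosomal protein genes, 0 rose and 2 fell.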
